A study of Homo sapiens with 4 samples.

Results

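The regions described here were the CpG-dense tiles that lay away from known promoters. A tile is a window of 1000 bp of the human genome (hg19, also named GRCh37), and a tile was taken when it was autosomal, held 41 or more CG dinucleotides in the reference and lay more than 2 kb from the transcription start site (TSS) of every transcript of every GENCODE gene type. Of the 72455 tiles listed in any of the 3 deposited tables of differences in DNA methylation, 69094 were autosomal and 2743 met this rule. The rule used the reference sequence and the annotation, not the methylation values. The data came from reduced representation bisulfite sequencing (RRBS) of 4 libraries of SKOV3, an established human ovarian cancer cell line of mesenchymal-like phenotype, with 1 library per clone. There were 2 clones of mesenchymal (M) phenotype: shC-S with its control shRNA, and LY75-R-S, labelled Ly75-OV-S, made from the LY75 knockdown cells by expressing LY75 from a cDNA that the shRNA does not target. The 2 clones of epithelial (E) phenotype had lost LY75, through shRNA in sh-LY75-S and through CRISPR in LY75-KO-S. shC-S vs. sh-LY75-S is called the knockdown comparison here, and the knockout comparison is LY75-R-S vs. LY75-KO-S. LY75 encodes an endocytic receptor, and the comparisons asked which methylation changes go along with its loss. In the paper, this loss leads to mesenchymal-epithelial transition, the reverse of epithelial-mesenchymal transition (EMT).

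Differences are given in percentage points of methylation, E clone against M clone, so that a positive value was read as hypermethylation in the E clone. The order of subtraction in the knockdown comparison was settled with promoter tiles of genes whose direction is stated by the study, such as HOOK1 (99.8 points) and CLDN5 (-91.9 points). Promoter tiles of the selected genes did not settle the order in the knockout comparison, where JMJD8 (50 points), CEND1 (-50.5) and EVX2 (-50) had the sign of the knockdown comparison and HOOK1 (-33.3) and IFFO1 (100) the opposite one. There it rests on the composition of the mix, the comparison that joins the libraries of both M clones against both E clones. Over the 91 members listed in all tables, the mix difference was fitted by least squares as a sum of 0.601 times the knockdown and 0.408 times the knockout difference, and a mix grouped the other way round would give the same fit. The deposited name of the knockout comparison puts LY75-KO-S first. Read in that order, all its signs would be reversed. The tables hold the tiles past the thresholds alone, with no methylation level and no read number per library, so depth is unknown and there is no replicate error. No test between conditions was therefore made, and the 95% Wilson intervals given for shares cover counting error only, with neighbouring tiles counted as if independent. The single comparisons share no library, although LY75-R-S was made from sh-LY75-S cells. The mix reuses all 4 libraries and is set beside them without being independent.

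CpG islands are stretches of DNA in which CG dinucleotides have been kept, and most of those at promoters are unmethylated in normal cells. Others, called orphan CpG islands, lie inside genes or between genes, where they can act as alternative promoters or enhancers or can be methylated as part of the gene body. Methylation over the body of a gene is common in transcribed genes, whereas CpG-dense DNA inside genes for developmental transcription factors is often held unmethylated by Polycomb proteins.

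The CpG-densest 200 bp of selected member tiles are printed first, because they show what such regions look like in sequence. They have a high density of CG dinucleotides (in capitals) and come from exonic, intronic and intergenic tiles. Sequences are from the GRCh37 reference, plus strand, 5′ to 3′. The tables do not state which CGs of a tile were read. The first set holds tiles of the same direction in all tables, hypermethylated in the E clones in PRDM16, in CHD5 and in an intergenic tile of chromosome 14, and hypomethylated in an intergenic tile of chromosome 16.
PRDM16, chr1:3347451-3347650: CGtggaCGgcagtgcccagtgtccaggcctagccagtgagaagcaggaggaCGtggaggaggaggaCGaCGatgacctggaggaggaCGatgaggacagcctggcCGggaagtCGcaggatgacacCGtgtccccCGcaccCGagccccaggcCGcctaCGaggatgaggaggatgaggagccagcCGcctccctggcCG
CHD5, chr1:6208704-6208903: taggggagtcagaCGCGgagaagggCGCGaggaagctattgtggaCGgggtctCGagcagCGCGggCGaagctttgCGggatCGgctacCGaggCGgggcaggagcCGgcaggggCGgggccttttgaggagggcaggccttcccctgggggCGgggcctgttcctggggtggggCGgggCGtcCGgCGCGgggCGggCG
intergenic, chr14:97091044-97091243: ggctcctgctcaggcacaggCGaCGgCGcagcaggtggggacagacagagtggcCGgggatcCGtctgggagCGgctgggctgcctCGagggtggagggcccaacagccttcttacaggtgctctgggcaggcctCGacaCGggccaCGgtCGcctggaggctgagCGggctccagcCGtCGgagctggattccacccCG
intergenic, chr16:33319133-33319332: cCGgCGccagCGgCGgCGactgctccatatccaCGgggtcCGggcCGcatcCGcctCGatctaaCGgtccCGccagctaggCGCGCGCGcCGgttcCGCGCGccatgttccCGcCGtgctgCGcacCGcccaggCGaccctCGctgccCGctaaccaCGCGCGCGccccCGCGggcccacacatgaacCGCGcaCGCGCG

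The next set holds tiles whose single comparisons had opposite directions, in an intron of the lncRNA gene ENSG00000286710, in TFAP2B and upstream of PDE10A.
ENSG00000286710, chr7:475302-475501: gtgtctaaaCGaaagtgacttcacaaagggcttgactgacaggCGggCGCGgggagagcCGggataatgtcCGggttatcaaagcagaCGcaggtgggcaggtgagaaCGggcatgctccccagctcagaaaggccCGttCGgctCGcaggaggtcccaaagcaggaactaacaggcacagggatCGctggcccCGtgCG
TFAP2B, chr6:50813315-50813514: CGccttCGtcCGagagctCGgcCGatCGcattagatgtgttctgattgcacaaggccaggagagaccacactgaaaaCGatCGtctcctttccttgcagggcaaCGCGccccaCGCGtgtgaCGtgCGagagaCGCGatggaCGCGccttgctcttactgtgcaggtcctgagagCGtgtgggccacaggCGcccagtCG
near PDE10A, chr6:166419468-166419667: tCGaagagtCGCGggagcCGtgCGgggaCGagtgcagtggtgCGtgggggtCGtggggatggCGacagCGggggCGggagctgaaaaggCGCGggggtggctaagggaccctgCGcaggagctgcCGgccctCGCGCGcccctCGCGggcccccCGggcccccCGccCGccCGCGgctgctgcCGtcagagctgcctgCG
These windows held between 14 and 38 CGs. The window of the chromosome 16 tile had 38 and that of the ENSG00000286710 tile 14. The MspI recognition sequence CCGG, at which RRBS fragments start, occurred 3 times in the printed part of the chromosome 16 tile and 2 times in those of CHD5, ENSG00000286710 and the tile near PDE10A. It was not found in the printed part of the TFAP2B tile, although the tile holds it elsewhere.

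CpG-dense tiles away from promoters were listed often after LY75 knockdown. The knockdown comparison listed 2205 of them, the knockout comparison 647 and the mix 879. In the reference, 12476 autosomal tiles met the rule, and MspI fragments of 40 to 220 bp could reach 11057 of them. Of these reachable tiles, the knockdown comparison listed 19.7% (18.9 to 20.4%), against a background of 12.5% of all reachable autosomal tiles. The share was also above the 16.1% (15.7 to 16.5%) of CpG-dense tiles within 2 kb of a TSS. The knockout comparison gave another order: 5.72% (5.31 to 6.17%) of the reachable members were listed, against a background of 6.6% and against 2.97% of the CpG-dense tiles near a TSS. The mix listed 7.82% (7.34 to 8.34%) of the reachable members, with 5.2% as background and 7.02% near a TSS. Members were thus listed more often than CpG-dense promoter-proximal tiles in each table, and more often than the background in the knockdown comparison and the mix alone.

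**Figure D1:**
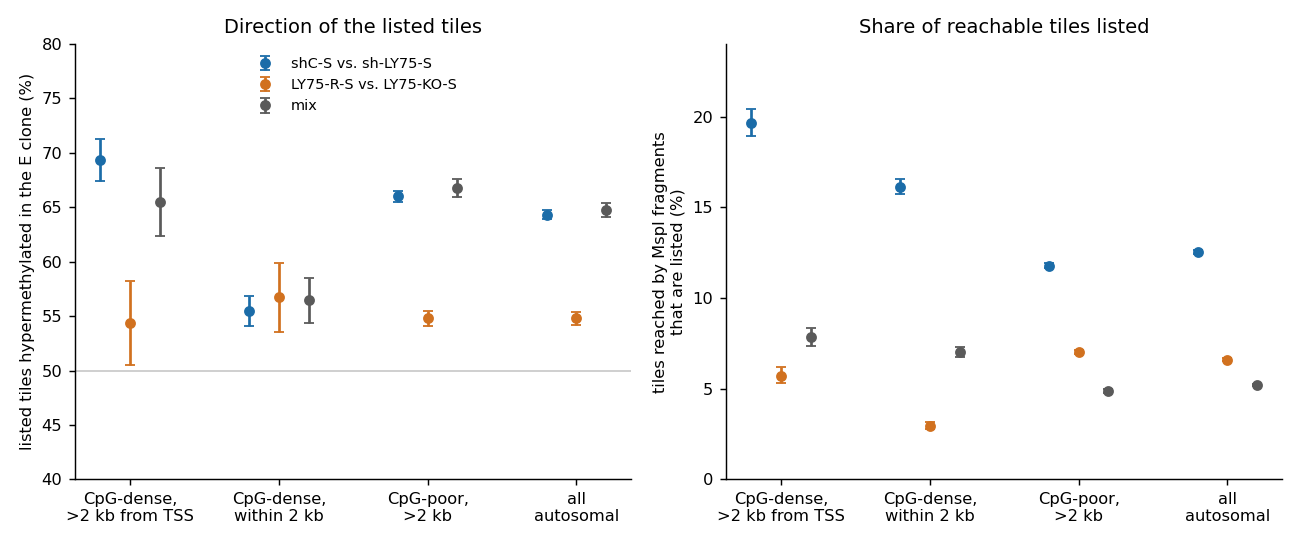
Left, the share of listed tiles that were hypermethylated in the E clone (%), by class of tile and comparison. Right, the share (%) of tiles reachable by MspI fragments that were listed. Points are shares and bars 95% Wilson intervals. In the knockdown comparison the CpG-dense tiles more than 2 kb from a TSS stood highest in both panels, at 69.3% and 19.7%.

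After LY75 knockdown, hypermethylation in the E clone prevailed at these tiles. Of the 2205 members in the knockdown comparison, 1529 were hypermethylated and 676 hypomethylated, so 69.3% (67.4 to 71.2%) were hypermethylated, against 64.3% of all listed autosomal tiles. CpG-dense tiles within 2 kb of a TSS had a share of 55.4% (54.1 to 56.8%), and their interval did not reach that of the members. CpG-poor tiles, with fewer than 41 CGs, that also lay more than 2 kb from a TSS had 66.0%. Distances were not matched between these classes. Of the members of the knockout comparison, 352 were hypermethylated and 295 hypomethylated, a share of 54.4% (50.6 to 58.2%) beside a background of 54.8% and 56.7% near a TSS. There the members could not be told from the other classes. With the signs of the knockout comparison turned, these shares would be 45.6%, 45.2% and 43.3%. In the mix, 576 were hypermethylated and 303 hypomethylated, or 65.5% (62.3 to 68.6%), where the background was 64.8% and CpG-dense tiles near a TSS had 56.5% (54.4 to 58.5%).

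The sizes of the differences were somewhat below those of all tiles. The median absolute difference of the members was 48.0 points in the knockdown comparison, 35.9 in the knockout comparison and 35.5 in the mix. All autosomal tiles had medians of 50.0, 41.8 and 36.9 points, in the same order. A difference of 50 points or more was listed for 1039 members of the knockdown comparison (47.1%, background 53.3%). The same size was reached by 181 members of the knockout comparison (28%, background 37.3%) and 142 of the mix (16.2%, background 21.6%). Complete differences of exactly 100 points were found for 106 members (4.81%, background 13.1%), 22 members (3.40%, background 9.32%) and 2 members (0.228%, background 0.478%), in the order of the tables. Members therefore had fewer complete differences than listed tiles as a whole. How far this follows from the number of reads per tile was not tested, since read numbers are not in the tables.

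**Figure D2:**
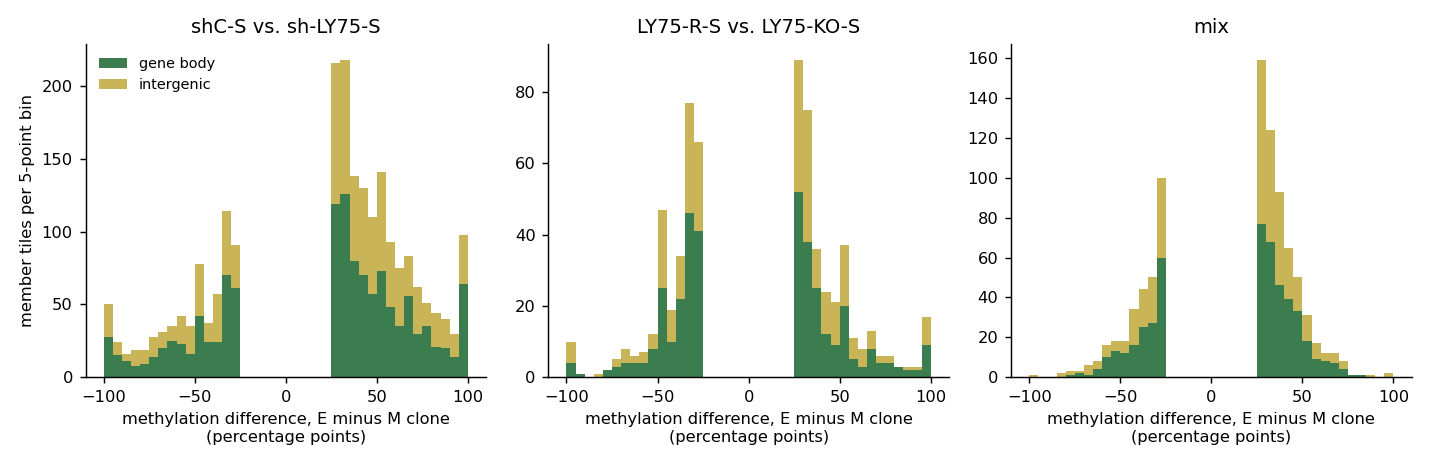
Differences in methylation, E minus M clone, of the CpG-dense tiles away from promoters (x axis, percentage points) as the number of tiles per 5-point bin (y axis), stacked by position in a gene body or between genes. The tables hold no difference under 25 points. For the knockdown comparison, 1529 tiles lie right of 0 and 676 left of it, and gene body and intergenic tiles have similar shapes.

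Among the members, the direction varied with CpG density. After knockdown, 74.1% (71.4 to 76.6%) of the 1086 tiles with 41 to 50 CGs were hypermethylated. The share was 67.5% at 51 to 60 CGs and 67% at 61 to 80. Over 80 CGs it was 52.6% of 194 tiles, close to that of the CpG-dense tiles at promoters. The mix had 68.8%, 64.7%, 67.1% and 49.4% in the same bins. The knockout comparison showed no such gradient, with 53.5%, 55.6%, 55.6% and 56.3%.

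Distance from the nearest TSS gave a gradient too. The hypermethylated share of the knockdown comparison was 62.9% (59.2 to 66.5%) of the members at 2 to 5 kb, 67% at 5 to 10 kb, 76.3% (73.3 to 79.1%) at 10 to 50 kb and 69.0% beyond 50 kb. In the mix it went from 57.4% to 65.5%, 71.9% and 73.9%. The knockout comparison had 48.9%, 56%, 57.0% and 57.4%, with intervals that overlapped throughout. Hypermethylated members of the knockdown comparison had a median TSS distance of 9222 bp and hypomethylated ones 6684 bp. Their medians of CGs per tile were 50 and 54, and those of the observed over expected CpG ratio 0.562 and 0.619. The hypomethylated tiles were therefore more island-like and nearer to genes' starts. Tiles within 1 Mb of a chromosome end were hypermethylated in 79.3% (73.7 to 84.0%) of 237 cases after knockdown, against 68.1% of the other members. In the knockout comparison the shares were 54.1% and 54.4%.

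**Figure D3:**
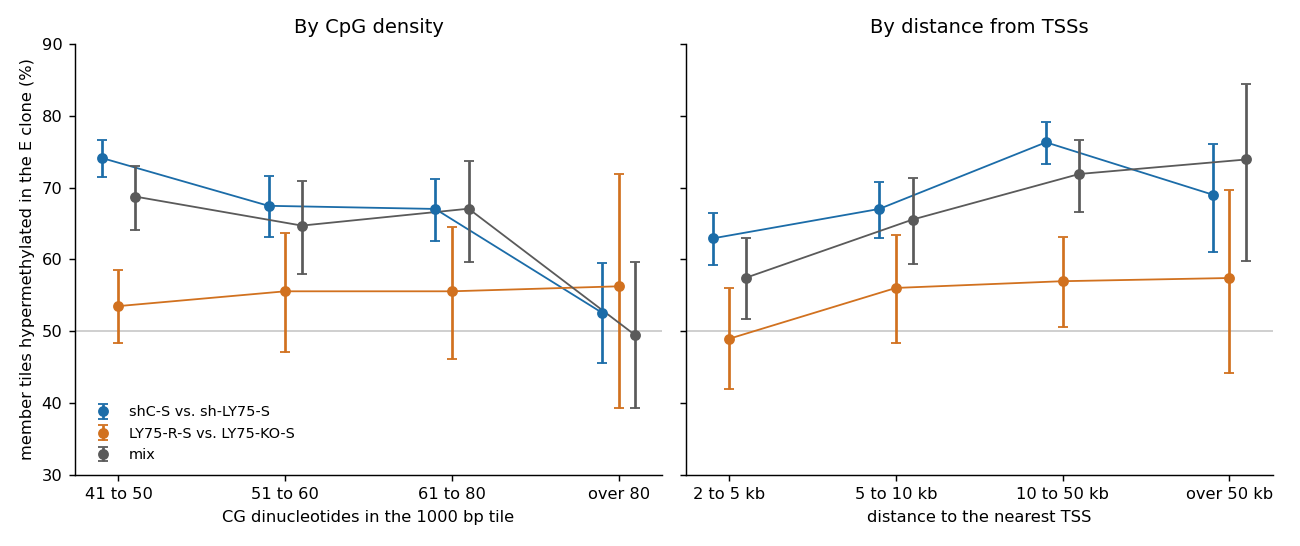
Share of member tiles hypermethylated in the E clone (y axis, %) by CGs per tile (left) and by distance to the nearest TSS (right), for each comparison. Points are shares, bars 95% Wilson intervals. In the knockdown comparison the share goes from 74.1% at 41 to 50 CGs to 52.6% over 80 CGs, while the knockout comparison stays between 48.9% and 57.4% in both panels.

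At the edges of the rule, the values just inside and just outside are given as a description. Tiles of 39 or 40 CGs, just outside, were hypermethylated in 74.0% of 354 cases in the knockdown comparison, and those of 41 or 42 CGs, just inside, in 72.8% of 309. CpG-dense tiles over 1 to 2 kb from a TSS had 53.7% of 447, and those over 2 to 3 kb 62.3% of 284. The corresponding values across the distance edge were 57.4% and 43.4% in the knockout comparison and 53.8% and 55.1% in the mix.

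Gene body and intergenic members had similar hypermethylated shares. A tile was placed in a gene body when it overlapped an annotated gene of any type. In the knockdown comparison, 848 of 1238 gene body members (68.5%, 65.9 to 71%) and 681 of 967 intergenic members (70.4%, 67.5 to 73.2%) were hypermethylated. The difference, gene body minus intergenic, was -1.93 points with an interval from -5.77 to 1.96. It was -3.34 points (-11.0 to 4.40) in the knockout comparison, where the shares were 53.0% of 370 and 56.3% of 277. In the mix it was -2.23 points (-8.47 to 4.09), from 64.5% of 482 and 66.8% of 397. Each interval held 0, so no difference between the positions was detectable at these numbers. It was detectable in the knockdown comparison when tiles of 31 or more CGs were taken, at -4.00 points (-6.44 to -1.54). Among CpG-poor tiles far from TSSs, 63.8% (63.04 to 64.5%) of the gene body tiles and 69.0% (68.2 to 69.8%) of the intergenic tiles were hypermethylated in that comparison. Median absolute differences were also alike, at 47.3 and 48.6 points in the knockdown comparison, 35.8 and 36.2 in the knockout comparison and 36.2 and 34.7 in the mix.

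Intergenic tiles were listed more often in the knockdown comparison and the mix. The knockdown comparison listed 22.2% (21.03 to 23.5%) of the reachable intergenic tiles against 18% (17.1 to 18.95%) of the reachable gene body tiles, and the mix 9.10% (8.28 to 10.0%) and 7.01% (6.43 to 7.65%). The knockout comparison listed 6.28% (5.596 to 7.05%) and 5.37% (4.86 to 5.93%), with intervals that overlapped. Within genes, a tile that overlapped any coding sequence was called a coding exon tile. One that overlapped other exon sequence alone was placed in other exons, and the rest in introns. Exon tiles can thus be partly intronic, and which of their CGs were read is unknown. The knockdown comparison had 386 members in coding exons (66.6% hypermethylated), 141 in other exons (67.4%) and 711 in introns (69.8%). In the mix the coding exon members had 60.9% of 161 and the intronic ones 67.6% of 275, with overlapping intervals.

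A CpG-dense tile inside a gene often had the direction of its gene's promoter. Of the knockdown members, 752 inside protein-coding genes had a listed tile within 2 kb of a TSS of the same gene, and 512 of them (68.1%, 64.7 to 71.3%) had its sign. CpG-poor tiles inside genes, also more than 2 kb from TSSs but not matched for distance, did so in 59.2% (58.2 to 60.3%) of 8802 cases. The mix gave 65.8% of 196 members beside 58.3% of the CpG-poor tiles. In the knockout comparison it was 55.3% (47.3 to 63.1%) of 150 members beside 49.5%, and these intervals overlapped. Members of one gene share its promoter tiles, and the intervals count them as if independent. Of the 512 knockdown members, 358 were hypermethylated like their promoter, the more common direction in that comparison. APC2 was a gene whose body and promoter went in opposite directions.

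The tables shared few members in full, and few of all listed autosomal tiles (3984 of 69094). Of the 2743, 91 were listed in all 3 tables, 98 in both single comparisons but not in the mix, 1361 in the knockdown comparison alone and 405 in the knockout comparison alone. Another 655 were in the knockdown comparison and the mix, 53 in the knockout comparison and the mix, and 80 in the mix alone. Of the 91, 76 had the same direction throughout, 44 hypermethylated and 32 hypomethylated, with 40 in gene bodies and 36 intergenic. This count is not a measure of agreement, because the mix reuses the same libraries. The mix listed 44 of 65 members hypermethylated and 32 of 38 hypomethylated in both single comparisons. Of those with opposite directions it listed 8 of 51 and 7 of 35. By rule, the 6 tiles per direction with the largest smallest difference are described.

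Hypermethylated in both E clones was, first, a coding exon tile near the 3′ end of PRDM16, a zinc finger regulator of brown fat and blood stem cell programmes (70.1 points in the knockdown comparison, 71.9 in the knockout comparison and 77.5 in the mix). CHD5, a chromodomain helicase and tumour suppressor, had 83.0, 65.5 and 71.1 points at a coding exon tile, in the same order. The intergenic tile of chromosome 14, 12851 bp from a TSS, had 60.4, 100 and 95.1 points. In these 3 tiles every difference was 60.4 points or more. In an intron of HCN2, a hyperpolarization-activated cation channel, the values were 97.7, 54.7 and 70.6 points. The intergenic tiles chr16:88177001-88178000 and chr1:48190001-48191000 had smallest differences of 58.3 and 56.1 points. The former has a near-identical copy elsewhere in the reference.

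Hypomethylated in both E clones was an intronic tile of CSNK1G2, a casein kinase 1 isoform, at -66.8, -63.5 and -64.4 points. SIM2, a bHLH-PAS transcription factor of neural development, had -74.0, -53.0 and -69.5 points in an intron. An intergenic tile 11647 bp from the TSS of GADD45B, a stress response gene, had -75.0, -50.0 and -56.5 points. The other intergenic tiles were chr16:33319001-33320000 (-61.3, -65.1 and -76.6 points), 1 of chromosome 9 (-71.8, -56.5 and -64.7) and chr5:8027001-8028000 (-100, -55.1 and -77.1). Repeated sequence was found in most of these tiles. Of their 50-mers, the read length, 56.4% occurred elsewhere in the genome in the chromosome 16 tile, 46.6% in that of chromosome 9, 44.8% in that of chromosome 5 and 32.5% in that of CSNK1G2. The SIM2 and GADD45B tiles had none. Among the 6 hypermethylated tiles, the 2 with repeated 50-mers were those of chromosome 16 (24.8%) and HCN2 (14.5%). The part of repeats in these values was not tested.

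Between the single comparisons, members with the same and with opposite directions were similar in number. Both listed 189 members, which is 8.57% of those of the knockdown comparison and 29.2% of those of the knockout comparison. For all autosomal tiles these shares were 16.0% and 29.2%. For CpG-dense tiles within 2 kb of a TSS they were 6.81% and 36.7%. Of the 189 members, 65 were hypermethylated in both and 38 hypomethylated in both. Another 51 were hypermethylated after knockdown and hypomethylated in LY75-KO-S, and 35 the reverse. The same-direction share was 54.5% (47.4 to 61.4%), beside 52.5% of all 7825 autosomal tiles listed in both. With the signs of the knockout comparison turned, the shares would be 45.5% and 47.5%. It was 51% of 102 gene body members and 58.6% (48.1 to 68.4%) of 87 intergenic ones, with intervals that overlapped. The mix listed 44 of the 65 members hypermethylated in both, with a median of 48.1 points. It listed 8 of the 51 that were hypermethylated after knockdown alone.

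**Figure D4:**
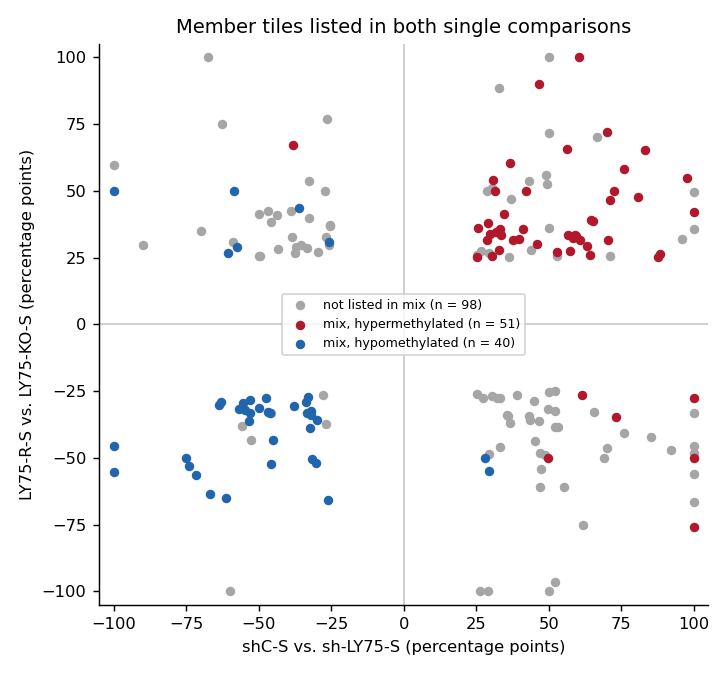
The 189 member tiles listed in both single comparisons, by their difference in the knockdown comparison (x axis, percentage points) and in the knockout comparison (y axis, percentage points), coloured by their listing in the mix. The upper right and lower left parts hold 65 and 38 tiles of one direction, the lower right and upper left 51 and 35 tiles of opposite directions. No tile lies within 25 points of either axis, since the tables hold none.

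Opposite directions reached full size in some tiles. The intronic tile of the lncRNA gene ENSG00000286710 had 100 points in the knockdown comparison and -75.8 in the knockout comparison, with 42.05 in the mix. TFAP2B, an AP-2 transcription factor of neural crest and kidney, had -67.5 and 100 points in a non-coding exonic tile. The tile upstream of PDE10A, a cyclic nucleotide phosphodiesterase, had 100 and -66.7 points. All single differences of these 3 tiles had a size of 66.7 points or more. A tile overlapping an exon of the gene ENSG00000278905, 2938 bp from its TSS, had -62.7 and 74.9 points. The nearest protein-coding TSS, at 11322 bp, is that of NR2F1, a nuclear receptor gene. In an intron of ZNF98, a zinc finger gene, the values were 61.8 and -75.0 points. At a coding exon tile of PPFIA3, a liprin of synapses, they were -100 and 59.7. Repeated 50-mers were absent from 5 of these 6 tiles and made up 1.58% of the ZNF98 tile.

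Adjacent member tiles mostly had the same direction after knockdown. No share for adjacent pairs of all listed tiles is given beside this. As 69.3% of the knockdown members were hypermethylated, unrelated pairs would also often share a direction. Among knockdown members, 187 of 212 pairs of adjacent members (88.2%) had the same direction, and the 2205 tiles formed 2018 runs of one direction, 163 of them of 2 or more tiles. The mix had 43 of 45 pairs in the same direction. The knockout comparison had 6 of 11 pairs, too few for an order to be read. The longest runs are named for each table.

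The longest run, 5 tiles, covered the last exons of APC2 (chr19:1468001-1473000), which encodes a member of the β-catenin destruction complex and is among the genes selected by the study. Its tiles had 26.4, 90.5, 60.02, 69.5 and 29.5 points in the knockdown comparison, and the second of them holds 146 CGs. The neighbouring gene C19orf25 overlaps these tiles. An upstream coding exon tile of APC2, at chr19:1455001-1456000, had 83.0 points. Every member tile in APC2 was thus hypermethylated in sh-LY75-S, while the promoter tiles of APC2 held a largest difference of -92.6 points in the same table. In the mix, 3 of the APC2 members were hypermethylated, at 43.2, 34.9 and 47.5 points. The last one, chr19:1472001-1473000, had -54.9 points in the knockout comparison and -39.6 in the mix, against 29.5 after knockdown.

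The long runs over EBF3, PAX2 and TBX2 were hypomethylated after knockdown. EBF3, a helix-loop-helix factor, had -55.9, -51.7, -100 and -85.0 points over 4 intronic tiles of chr10:131765001-131769000. PAX2, a paired box factor of kidney and Müllerian duct development, had -63.8, -80.7, -62.4 and -61.8 over 4 tiles of its last exons, at chr10:102586001-102590000, 77037 bp or more from the nearest TSS. TBX2, a T-box repressor, had the longest run of the mix at chr17:59480001-59483000, with -47.4, -58.0 and -74.8 points, and -100, -99.8 and -90.9 in the knockdown comparison. None of the EBF3, PAX2 and TBX2 tiles was listed in the knockout comparison. The other long runs of the mix were hypermethylated, in introns of ARID3A, a DNA-binding factor (56.3, 69.2 and 37 points, with 94.6, 91.0 and 42.4 in the knockdown comparison), and in HCN2 (62.8, 28.9 and 53.9 points). In the knockout comparison the longest runs had 2 tiles. In an intron of a long TWIST1 transcript, the tiles had 36.9 and 100 points. TWIST1 encodes a repressor of E-cadherin that drives EMT. The first of the TWIST1 tiles had -25.3 points in the knockdown comparison. A run in HTR1E, a serotonin receptor gene, had -100 and -25.6 points.

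Gene lists differed in direction, as described by counts alone. Members inside genes of homeobox transcription factors, which specify body axis and cell identity, were mostly hypomethylated after knockdown: 37 of 56 tiles in the knockdown comparison, with a median absolute difference of 53.1 points while 69.3% of all members were hypermethylated. The mix listed 18 of 25 as hypomethylated and the knockout comparison 2 of 3. A coding exon tile of BSX had -100 points, an intronic tile of ONECUT2 -94.7 and one of LHX4 -91.1. CpG-dense tiles within 2 kb of the TSSs of homeobox genes were hypomethylated too, in 178 of 235 cases. Of all CpG-dense tiles within 2 kb of a TSS, 55.4% were hypermethylated in the knockdown comparison. SOX, T-box, GATA, ZIC, forkhead, RUNX and TFAP2 genes had 12 of 19 members hypomethylated in the knockdown comparison, or 7 of 13 without GATA4, which held most tiles. TGF-β and BMP pathway genes had 4 of 4 members hypomethylated, 2 of them in SKI, an inhibitor of SMAD signalling, at -48.6 and -39.0 points. TGFB1I1, a focal adhesion protein, had -29.6. The knockout comparison listed 0 members of this list and the mix 1, which was hypomethylated. Of the promoter tiles of these genes, 14 of 26 were hypomethylated after knockdown.

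Genes of ion channels and ligand-gated receptors were mostly hypermethylated after knockdown, as were 69.3% of all members. Of 58 knockdown members, 49 were hypermethylated, with a median absolute difference of 49.7 points, beside 79 of 123 promoter tiles (55.4% of all such tiles). The share held without KCNG2, the gene with most tiles, at 42 of 51. The mix had 21 of 27 and the knockout comparison 5 of 11. KCNH2, a cardiac potassium channel, had 100 points at a coding exon tile, and SCN8A, a sodium channel, -100. Genes of cadherins and protocadherins had 9 of 11 hypermethylated, such as CDH15 (97.6 points), with 2 of 4 in the knockout comparison and 5 of 7 in the mix. ZNF genes had 19 of 26 (73.1%, near the share of all members), 5 of 10 in the knockout comparison and 4 of 9 in the mix. Wnt pathway genes had 13 of 14, 7 of 8 without APC2. The knockout comparison had 2 of 5 hypermethylated, and the mix 5 of 8, or 2 of 4 without APC2. WNT3, which the study selected, had 78.9 points at an intronic tile, and WNT3A, a Wnt ligand, 75.5 in the knockdown comparison and 74.8 in the mix. Promoter tiles of Wnt pathway genes were hypermethylated in 16 of 35 cases, beside 55.4% of all CpG-dense tiles within 2 kb of a TSS.

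Chromatin modifier genes had 32 of 41 members hypermethylated after knockdown, whereas 30 of 41 CpG-dense tiles at their promoters were hypomethylated. PRDM16 alone gave 21 of the 32. Without it, 11 of 19 members were hypermethylated, so the count of the list rested largely on this gene. Axon guidance genes had 8 of 10 members hypermethylated, beside 69.3% of all members, with EFNA2, an ephrin, at 56.7 points. Without EFNA2, which held most tiles, 5 of 7 (71.4%) were hypermethylated. Promoter tiles of axon guidance genes were hypermethylated in 11 of 29 cases, beside 55.4% of all CpG-dense tiles within 2 kb of a TSS. Genes of extracellular matrix, integrins and matrix proteases had 12 of 21 (57.1%), and 7 of 9 in the knockout comparison, where all members had 54.4%. COL18A1, which encodes collagen XVIII, had 79.5 points in the knockdown comparison and 82.6 in the mix. The EMT genes that the study listed, which were chosen on these samples, had 8 of 12 hypermethylated (66.7%, near the share of all members). They had 6 of 9 in the knockout comparison and 3 of 6 in the mix. No member lay in LY75 itself, whose 2 promoter tiles of the knockdown comparison had a largest difference of 87.7 points.

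**Figure D5:**
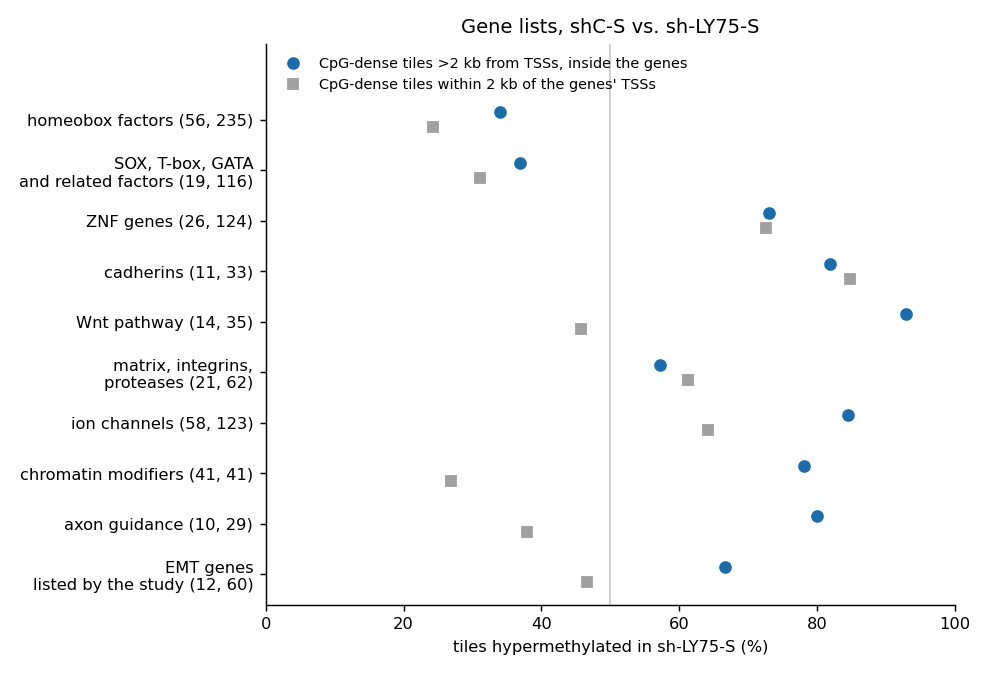
Share of tiles hypermethylated in sh-LY75-S (x axis, %) in the knockdown comparison for gene lists with 10 or more member tiles (y axis). Circles are CpG-dense tiles inside the genes and more than 2 kb from TSSs, squares CpG-dense tiles within 2 kb of the genes' TSSs, and the numbers in brackets are their counts, in that order. Homeobox factors stand below 50% for both kinds of tile, while chromatin modifiers have 32 of 41 tiles hypermethylated inside genes and 11 of 41 at promoters, with 21 of the 32 in PRDM16.

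A few genes held many members, and they were named after their counts had been seen. PTPRN2, a receptor of dense-core vesicles that spans 1049 kb, had 38 members, where MspI fragments could reach 76 tiles of the rule. The knockdown comparison listed 28 of them, 20 hypermethylated, and the knockout comparison 12, of which 6 were. PRDM16 had 23 of 49 reachable tiles listed in any table, while 8351 of all 11057 reachable tiles of the rule were in none. Of its 22 tiles after knockdown, 21 were hypermethylated with values from 27.7 to 100 points, and the exception was an intronic tile at -90.9. The knockout comparison listed 4 tiles of PRDM16, at 88.6, 71.9, -27.7 and -79.2 points, so that its directions were divided. In DLGAP2, a postsynaptic scaffold gene, 16 of 17 tiles were hypermethylated after knockdown, and in KIF26A, a kinesin family gene, 9 of 9 with a median of 53.0 points. GALNT9, an O-glycosylation enzyme, had 9 of 11 and CFAP46, a cilia-associated gene, 8 of 8. Of all members of the knockdown comparison, 69.3% were hypermethylated.

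NFATC1, a calcium-regulated transcription factor, went the other way. Of its 11 members, the knockdown comparison listed 5 as hypomethylated, from -28.7 to -81.9 points, and 1 coding exon tile at 29.03. The mix listed 6, all hypomethylated, from -25.5 to -50.3 points. In the knockout comparison 4 of 6 were hypomethylated. One intronic tile had -32.1, -38.7 and -28.9 points in the 3 tables, and another had -32.6 points after knockdown and 53.6 in the knockout comparison.

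Tiles named for small q-values follow. In the knockdown comparison 146 members had a q-value of 0, and those of the largest differences among them were taken. There an intergenic tile 2148 bp from the TSS of TMEM14C had 100 points, and coding exon tiles of CCDC177 and RIN2, a Rab5 exchange factor, had 99.8 and 99.7. In the opposite direction, a coding exon tile of GRID1, a glutamate receptor gene, had -99.6 points, one of ARHGAP23 -97.9, and an intergenic tile 4533 bp from the TSS of STAT3 -97.0, with -81.0 in the mix. In the knockout comparison, DLL3, a Notch ligand, had 66.6 points at a coding exon tile and IL4I1, an amino acid oxidase, -57.9. SNRPN, an imprinted gene, had 68.6 points in an intron and 48.4 in the mix. In the mix, a coding exon tile of MATN4, a matrilin of the matrix, had 57.5 points, with 85.1 in the knockdown comparison, and an intronic tile of the homeobox gene PBX3 52.7, with 70.5 and 31.7 in the single comparisons. A tile 6285 bp from the TSS of FOXD2, a forkhead gene, had -58.9 in the mix and -86.2 after knockdown.

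Some members lay in remote intergenic DNA. The most remote member of the knockdown comparison, on chromosome 4, lay 254021 bp from the nearest TSS and had 25.9 points in the knockdown comparison. Tiles of chromosomes 3 and 10, at 223172 and 220523 bp, had 42.9 and -50.0 points. On chromosome 5, a tile 196705 bp from a TSS was listed in all tables, with 37.8, 31.7 and 34.1 points. On chromosome 3, a tile 215963 bp away had 57.8 points after knockdown and 45.7 in the mix.

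By sequence, the members of the knockdown comparison had a median of 51 CGs and 61.8% G+C, beside 50 and 61.3% of all 12476 reference tiles of the rule. Near-identical copies elsewhere, of 90% identity over 500 bp or more, were found for 7.35% of them, 13.0% of the members of the knockout comparison and 5.46% of those of the mix, against 18.4% of the reference tiles. Tiles rich in internal repeats, with 25% or more of their 12-mers repeated, made up 9.39%, 16.2% and 8.30%. They were 20.8% of the reference tiles but 16.7% of the reachable ones, close to the share in the knockout comparison. Tiles with more than 50% of their 50-mers found elsewhere were 8.21%, 17.3% and 5.92% of the members. The hypermethylated share was alike with and without such repeats in the knockdown comparison, at 68.0% and 68.1% for tiles with more than 50% and with no repeated 50-mers. Of the 3 tables, the knockout comparison thus had the members richest in repeated sequence.

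Motifs were counted on both strands of the tiles. CACGTG, the E-box bound by MYC and USF factors when unmethylated, was in 23.9%, 23% and 24.6% of the members of the 3 tables and in 20.9% of the reference tiles. GCGCATGC, part of the NRF1 motif, was in 3.08%, 2.78% and 2.50%, with 3.05% in the reference. CCAGGGGGC, part of the CTCF motif, was in 4.13%, 3.71% and 5.12%, with 3.47% in the reference. CCGG, the MspI site, was in 95.2% of the reference tiles. None of these motifs contains another, and a match describes letters, not binding.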

How the data were processed

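DNA methylation was measured by RRBS in 4 SKOV3 libraries, 1 per clone. The authors trimmed the reads with Trim Galore 0.4.1 after FastQC, aligned them to hg19 with Bismark 0.16.1 and tested tiles of 1000 bp with methylKit. For each tile past their threshold of 25 points, the authors deposited a difference in percent methylation, a p-value and a q-value from methylKit. The names of the tables state q 0.01, the methods an adjusted p of 0.05. These columns are comparisons of the authors, and they were used because no values per library were at hand. The smallest coverage accepted is not given in the sources used here.

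CGs, motifs, MspI fragments of 40 to 220 bp with reads of 50 bp, TSS distances and gene positions were computed from GRCh37 and GENCODE release 44 (lifted to that build). All chromosome lengths used were those of hg19. Copies were sought with minimap2 2.31, which can miss highly repeated elements, so repeated 50-mers were counted as well, a measure added after the data had been seen. Shares have 95% Wilson intervals, and differences of shares intervals built from them. Scripts were tested on simulated data. Named tiles were taken by rule: the 6 per direction with the largest minimum difference in all tables, the 6 largest of opposite directions, the 5 per direction with the smallest q, the longest runs, the most remote tiles, members in the genes selected by the study, and up to 3 per gene list. Not all of them are described, and some genes and sequences are not reported here. The members, rules and lists were chosen with earlier results of these data known. Scripts ran under Python 3.11.15 with pandas 2.3.3, numpy 2.4.6, pysam 0.24.0, scipy 1.17.1 and matplotlib 3.10.9.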

Additional observations from a re-analysis of the deposited data

Results flagged for a closer look

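Member tiles with opposite and large differences in the single comparisons were singled out, since the same tile had opposite signs in the knockdown and the knockout comparison. With 1 library per clone, this difference between the comparisons was not tested. The values for the knockdown comparison and the knockout comparison were 100 and -75.8 points in the ENSG00000286710 tile, -67.5 and 100 in the TFAP2B tile and 100 and -66.7 in the tile near PDE10A. They were -62.7 and 74.9 in the tile near NR2F1, 61.8 and -75.0 in the ZNF98 tile and -100 and 59.7 in the PPFIA3 tile. Read in the order of the deposited name of the knockout comparison, each of these tiles would have the same direction in both.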

How the results depend on the processing

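Of the values recomputed under other settings, 109 stayed within the interval of the value given (counts within 1.5 times), 23 moved and 1 difference of shares passed to an interval without 0. Counts of members, and medians at 50 points or more or without differences of exactly 100 points, moved by the construction of the setting. For the other values the cause was not tested. With 31 or more CGs per tile, 5019, 1925 and 1993 tiles were members (the knockdown comparison, the knockout comparison and mix), and the hypermethylated share was 73.3% in the knockdown comparison and 71.05% in the mix. Gene body minus intergenic was then -4.00 points (-6.44 to -1.54) in the knockdown comparison, an interval without 0. With 51 or more, 1119, 275 and 463 were members, with 64.7% hypermethylated in the knockdown comparison. More than 5 kb from a TSS, the shares were 72.2% in the knockdown comparison and 69.5% in the mix, where gene body minus intergenic was 5.54 points (-1.89 to 12.9). At 50 points or more, 1039, 181 and 142 members had medians of 67.5, 60.5 and 57.9 points, and shares of 59.1% in the knockout comparison and 59.9% in the mix. With q of 1e-10 or less, the medians were 50.0 and 38.9 points in the single comparisons, and without differences of exactly 100 points 46.3 in the knockdown comparison. TSSs of protein-coding genes alone, runs counted as 1 tile, and leaving out tiles with copies or, as chosen after seeing the data, with over 50% repeated 50-mers, moved none of these values out of its range.

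The same-direction share of the single comparisons lay between 52.1% and 56.9% under all settings. The alternative that leaves out soft-masked tiles was not run, because the reference used has no soft-masking. No replicate could be left out, and no paired analysis was possible because each clone had 1 library. Depth limits each difference to an unknown extent: the tables hold no read number, and RRBS reads without molecular identifiers may be copies of 1 molecule.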

Other observations

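Imprinted genes, which are expressed from the copy of one parent, held 7 members in 4 genes. In the knockdown comparison, 4 of 5 were hypermethylated, or 1 of 2 without KCNQ1, beside 69.3% of all members. DLK1, a Notch-like growth inhibitor, had 100 points at a coding exon tile, and KCNQ1, a potassium channel, 70.1 in an intron. The SNRPN tile was listed in the knockout comparison and the mix alone. Of the knockdown members inside protein-coding genes, 146 contained the 3′ end of a transcript of such a gene. These ends include those of shorter transcripts that end within the gene. Of the 146, 65.1% (57.0 to 72.3%) were hypermethylated, beside 69.0% of the 845 others.

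By chromosome, the knockdown comparison listed between 16.2% (chromosome 4) and 23.2% (chromosome 10) of the reachable members, and the hypermethylated share lay between 55.9% (chromosome 6) and 77.9% (chromosome 14).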
